A study of Mus musculus with 8 samples.

Results

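The genes described are 10 mouse serpins of clade A that sit in 1 cluster on chromosome 12. They are the 5 alpha-1-antitrypsin genes Serpina1a, Serpina1b, Serpina1c, Serpina1d and Serpina1e, the 4 antichymotrypsin-type genes Serpina3c, Serpina3k, Serpina3m and Serpina3n, and Serpina6. They were taken by gene name from a table of 27277 gene rows and were selected on knockout and control counts that were already known, so their values in that contrast are a description with no p-value. A filter on low counts kept 15135 rows for testing, 9 of the 10 serpins among them, and Serpina3c did not pass it.

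Serpins inhibit proteases by offering a reactive loop as bait: once the loop is cut, the serpin refolds and holds the protease in a covalent complex. Alpha-1-antitrypsin is the main plasma inhibitor of neutrophil elastase, and in humans it comes from a single gene, whereas the mouse carries a row of close copies. Antichymotrypsin, the human SERPINA3 product, inhibits cathepsin G and chymase, and this gene too has expanded in the mouse. Serpina6 encodes corticosteroid-binding globulin, which carries glucocorticoids in the blood and is not an inhibitor. Hepatocytes make most of these proteins and secrete them into plasma, and several are acute-phase proteins, whose output changes in inflammation.

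Primary mouse hepatocytes were kept in culture for 24 h and given 100 nM glucagon for 12 h, in both genotypes. The knockout group was Lcmr1f/f with albumin-cre, in which the albumin promoter drives Cre recombinase in hepatocytes, and the control group was Lcmr1f/f without Cre. Lcmr1 is another name of Med19, a subunit of the Mediator complex, a coactivator that passes signals of bound regulators on to RNA polymerase II. There were 3 knockout and 3 control RNA libraries, and 1 knockout and 1 control ChIP library. Sample titles name an RNA polymerase (written poll III) as the ChIP target while the series' description names Lcmr1, so the target of the ChIP is not settled by the labels. The labels do not tie replicate numbers to animals, so spreads and p-values measure differences between these samples, which may be technical.

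The RNA libraries held 22191786 to 26595249 counts. Med19 had 2.91, 5.27 and 3.02 CPM (counts per 1000000, with library sizes multiplied by TMM factors) in knockout libraries 1 to 3, against 7.5, 10.8 and 13.4 CPM in control libraries 1 to 3. On the log2 scale this was a difference of -1.50 (SE 0.31, adjusted p = 0.012 with edgeR's quasi-likelihood test), counted over the whole gene and not the deleted part alone. All 9 hepatocyte markers measured were present, with summed levels of 29123 to 37660 CPM in knockout and 105291 to 119803 CPM in control libraries, and all 9 fell. Of 12 macrophage markers, 10 rose and none fell, with summed levels of 794 to 935 CPM in knockout and 381 to 464 CPM in control libraries. In bulk RNA, fewer cells of a type and less RNA per cell cannot be told apart. The contrast across all 15135 genes tested gave 1905 higher and 1960 lower genes at an adjusted p under 0.05, and 7711 higher and 617 lower genes when scaled by library size alone, which put the median of all log2 fold changes at 0.60, against 0.01 with TMM. Changes are therefore stated relative to the bulk of genes, as TMM sets it.

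Control library 1 stood apart from the other controls. In a chi-square comparison of counts over genes, the statistic divided by its degrees of freedom was 149.7 and 143.2 between control 1 and controls 2 and 3, against 7.408 between controls 2 and 3. At least 2-fold distance from both other controls was seen at 583 of 9737 genes with 5 CPM or more, or 5.99%, and at 3 of the 9 serpins with that level, which were Serpina3m, Serpina3n and Serpina6. Knockout library 2 lay that far from both other knockouts at 0.709% of the same genes, and at 1 serpin, Serpina1e. Knockout library 3 did so at more of these genes, 1.25%. Knockout 2 is thus singled out here for its serpin values and not over all genes. Serpin values that rest on control 1 or knockout 2 are given with and without them.

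With all 6 libraries, 6 of the 9 serpins were called lower and none higher, beside 13.0% of all genes tested called lower and 12.6% called higher. The 6 were Serpina1a to Serpina1e and Serpina3k. The median log2 fold change of the 9 was -1.49, against 0.01 over all genes tested. Without control 1, 6 were called lower (Serpina1a to Serpina1d, Serpina3k and Serpina3n) and Serpina6 higher, beside 16.0% and 15.3% of all genes. With library size alone, 5 were lower and none higher, beside 4.08% and 50.9% of all genes, and Serpina1d was the one no longer called. Since the serpins were picked with this contrast known, nothing is read from these shares.

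**Figure D1:**
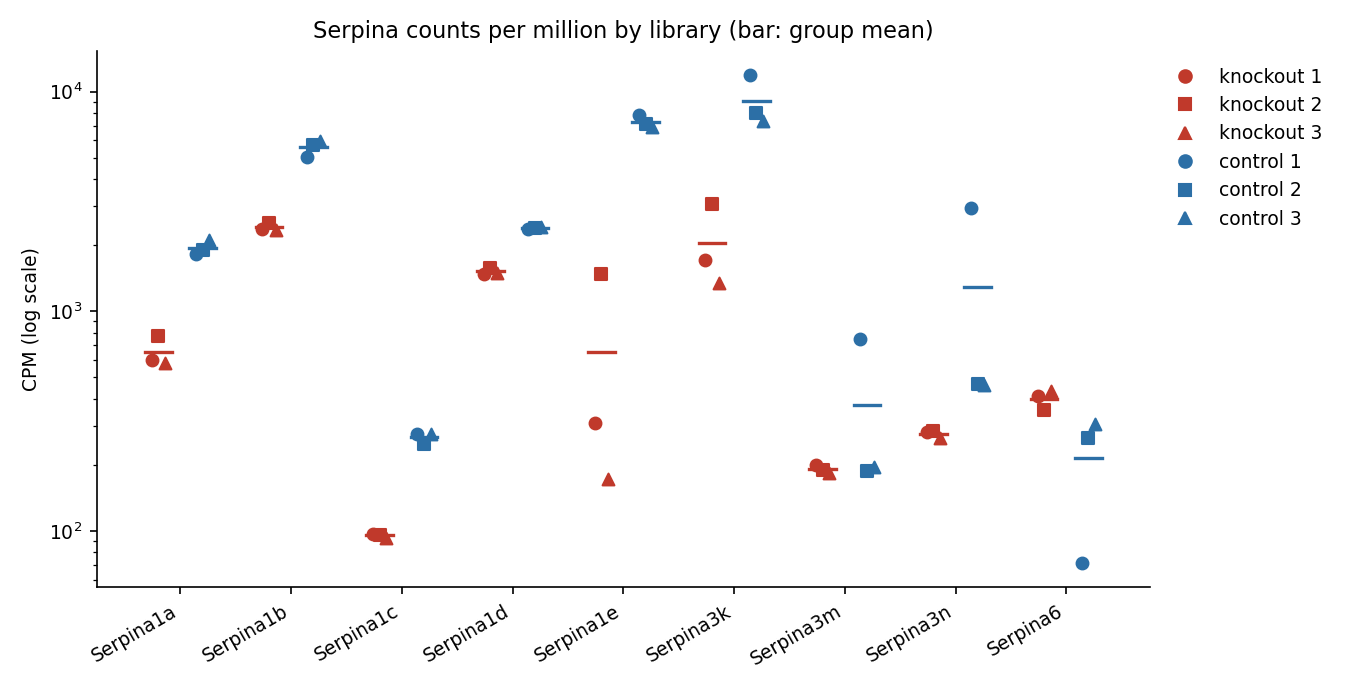
Levels in CPM on a log axis of the 9 serpins that passed the low-count filter, with knockout libraries in red at the left of each pair and control libraries in blue at the right; symbols give the library number and bars the group mean. The Serpina1 genes and Serpina3k lie lower in every knockout library than in any control library, while Serpina3m, Serpina3n and Serpina6 have control library 1 far from controls 2 and 3.

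The Serpina1 genes together were lower in the knockout. Their summed level was 4864, 6441 and 4698 CPM in knockout libraries 1 to 3, against 17356, 17444 and 17592 CPM in control libraries 1 to 3. The 3 control sums were close together, knockout 2 was the highest of its group, and the groups were far apart. The means were 5334 ± 962 CPM in knockout and 17464 ± 119 CPM in control libraries (SD, n = 3 each), a log2 ratio of -1.71. As a share of all counts, with no scaling by TMM, the 5 genes took 0.652 ± 0.102% in knockout and 1.42 ± 0.073% in control libraries (SD, n = 3 each). Macrophage markers rose in the same libraries and hepatocyte markers fell, by a median of -1.15 on the log2 scale over 9 genes, and their part in the sum was not tested.

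The 5 copies did not move by the same amount. Serpina1e (chromosome 12, 103946931 to 103958975, mm10, minus strand, protein coding like all 10 genes) had 309, 1485 and 172 CPM in knockout libraries 1 to 3, against 7854, 7155 and 6866 CPM in control libraries 1 to 3. All 3 knockout values lay well below the control values, but knockout 2 was 6.17 times the mean of the other knockouts. The log2 fold change was -3.48 (SE 0.88) with all libraries and -4.94 (SE 0.31) without knockout 2. The knockout means were 655 ± 722 CPM with and 241 CPM without that library, against 7292 ± 508 CPM in the controls (SD, n = 3 each where given). This copy passed the call with all libraries and lost it with no filter on low counts, without knockout 1 and without any 1 of the controls.

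Serpina1a (103853589 to 103863562, minus strand) encodes an inhibitor of elastase. It had 600, 771 and 580 CPM in knockout libraries 1 to 3, against 1818, 1907 and 2104 CPM in control libraries 1 to 3, for a log2 fold change of -1.58 (SE 0.15). Serpina1c (103894926 to 103904887, minus strand) had 97.3, 95.3 and 93.3 CPM in knockout libraries, against 277, 248 and 275 CPM in control libraries, for a log2 fold change of -1.49 (SE 0.10). The 3 knockout values of Serpina1c had an SD of only 2.01 CPM. The noncoding gene B430119L08Rik runs through Serpina1c on the opposite strand, and as the strand setting of the counting is not given, their reads cannot be told apart.

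Serpina1b (103728156 to 103830373, minus strand) had 2377, 2518 and 2354 CPM in knockout libraries 1 to 3, against 5039, 5734 and 5931 CPM in control libraries 1 to 3, for a log2 fold change of -1.20 (SE 0.11). The interval deposited for this row also spans Serpina1d and the pseudogene Gm8893, whereas RefSeq ends the gene at 103738189. Serpina1d (103763594 to 103773592, minus strand) was the least changed copy, with 1481, 1572 and 1500 CPM in knockout libraries, against 2368, 2401 and 2416 CPM in control libraries. Even here the groups did not overlap, and the knockout mean was 0.634 times the control mean. Its log2 fold change of -0.66 (SE 0.10) came to -0.07 (SE 0.11) when scaled by library size alone, where the median of all genes was 0.60 and Serpina1d lay 0.67 below it. How reads that fit more than 1 copy were assigned is not given, so values of single copies are less certain than their sum.

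The make-up of the Serpina1 sum therefore differed between the groups. Serpina1e gave 6.36%, 23.0% and 3.66% of the summed Serpina1 counts in knockout libraries 1 to 3, against 45.3%, 41.0% and 39.0% in control libraries 1 to 3. Serpina1d took 28.9 ± 3.98% in knockout and 13.7 ± 0.0619% in control libraries, and Serpina1b took 46.0 ± 6.03% in knockout and 31.9 ± 2.49% in control libraries (SD, n = 3 each). Serpina1a held a like share in both groups, 12.2 ± 0.206% in knockout and 11.1 ± 0.761% in control libraries. Shares are of counts and not per length, since exon lengths are not in the files used here, so no order of levels between genes is drawn. Without Serpina1e, a sum chosen after its values were seen, the other 4 copies came to 4679 ± 241 CPM in knockout and 10172 ± 620 CPM in control libraries (SD, n = 3 each), a log2 ratio of -1.12.

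**Figure D2:**
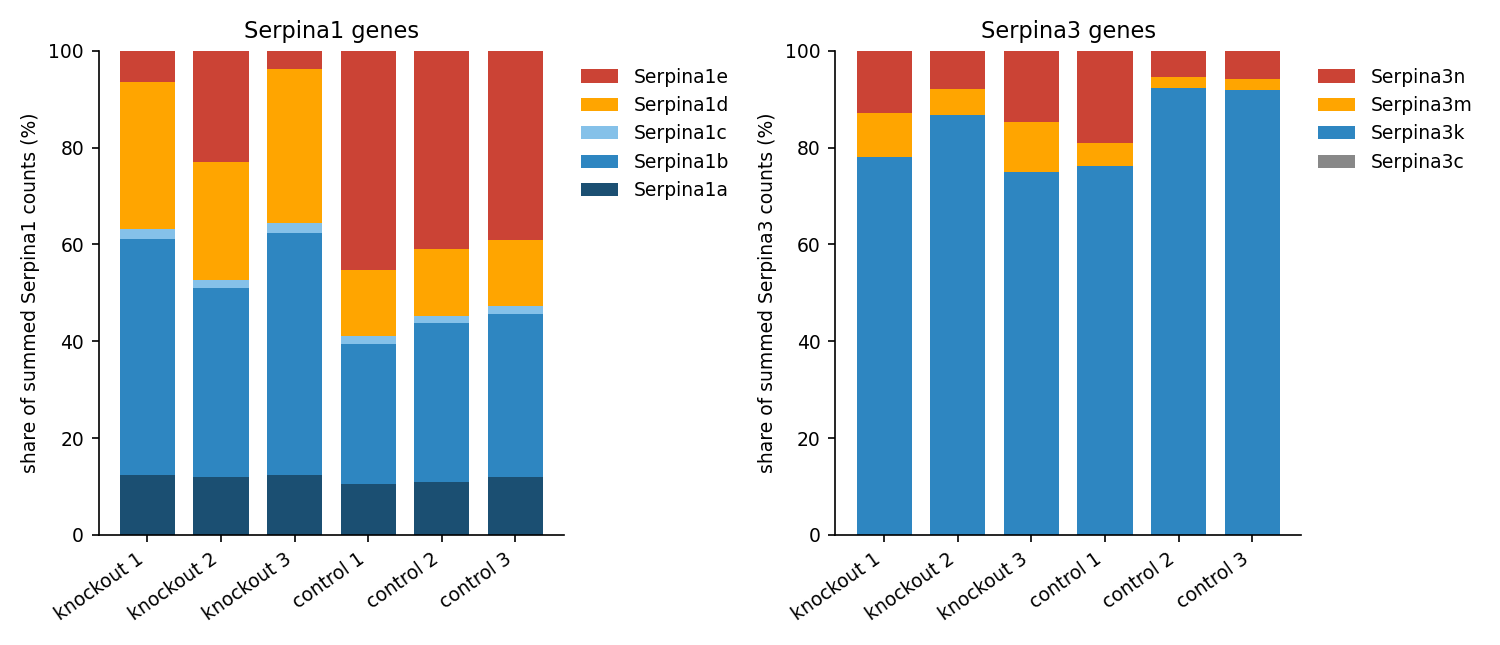
Share in percent of the summed counts of the Serpina1 genes (left panel) and of the Serpina3 genes (right panel) held by each gene, one bar per library, knockout libraries first. Serpina1e holds at most 23.0% of the Serpina1 counts in a knockout library and at least 39.0% in a control library, and Serpina3k holds at least 75.0% of the Serpina3 counts in every library.

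The stretches in front of the Serpina1 genes are close copies of each other. RefSeq promoter sequences (GRCm38.p6, the assembly also called mm10) were at hand for 7 of the 10 genes and matched by symbol: the 5 Serpina1 genes, Serpina3c and Serpina3n. Over their local alignments the 5 Serpina1 promoters were 91.4% to 97.6% identical. The aligned windows of 96 bases below are shown because the copies with the largest and the least fold change, Serpina1e and Serpina1d, can be read against each other. Capitals mark GTTAAT, a run of letters that all 5 copies carry close to their starts.
Serpina1e: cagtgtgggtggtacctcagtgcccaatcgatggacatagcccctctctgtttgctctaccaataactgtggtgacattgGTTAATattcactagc
Serpina1a: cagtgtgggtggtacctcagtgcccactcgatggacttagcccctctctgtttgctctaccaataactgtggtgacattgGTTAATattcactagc
Serpina1b: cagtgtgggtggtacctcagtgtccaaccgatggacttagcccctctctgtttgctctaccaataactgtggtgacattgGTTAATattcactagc
Serpina1c: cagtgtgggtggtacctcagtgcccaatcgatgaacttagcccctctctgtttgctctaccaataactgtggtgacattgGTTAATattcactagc
Serpina1d: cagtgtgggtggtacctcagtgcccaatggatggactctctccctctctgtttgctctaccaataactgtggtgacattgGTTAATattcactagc

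All 5 windows are on the minus strand, at chr12:103956960-103957055 for Serpina1e, chr12:103863625-103863720 for Serpina1a, chr12:103738200-103738295 for Serpina1b, chr12:103904962-103905057 for Serpina1c and chr12:103773634-103773729 for Serpina1d. Positions count from 1 at the 5′ end of the window and the Serpina1e base comes first. Serpina1a differed from Serpina1e by A27C and A37T, and Serpina1c by G34A and A37T. Serpina1b differed by C23T, T28C and A37T. Serpina1d had 6 differences, C29G, A37T, T38C, A39T, G40C and C41T. A37T was thus shared by the other 4 copies, and the last 55 bases of the window were the same in all 5. The windows end upstream of the start that RefSeq gives each gene, and GTTAAT began 78 bases before the RefSeq start of Serpina1e and 16 to 27 bases before those of the other copies. The deposited intervals of Serpina1e and Serpina1b begin further upstream than RefSeq does and take in these windows.

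GTTAAT on either strand was found in 7.1% of the 32851 RefSeq promoters of 300 bases, in all 5 Serpina1 promoters and, on the other strand, in that of Serpina3c. TTGCNNAA, a C/EBP-type site, was found in 10.8% of all promoters and in those of Serpina1a, Serpina1b, Serpina1d and Serpina1e. TATAAA was found in 13.6% of all promoters and among these genes in that of Serpina3c. TTCNNNGAA, the site of STAT factors, was found in 8.3% of all promoters and in none of the 7. Both strands were searched for each, and no 2 of these matches overlapped. A match is a run of letters and does not show binding, and no match says nothing about the factor.

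The Serpina3 genes together were also lower in the knockout, with a wider spread. Their summed level was 2202, 3546 and 1791 CPM in knockout libraries 1 to 3, against 15584, 8624 and 7984 CPM in control libraries 1 to 3. Control 1 held the highest sum and knockout 2 the highest of its group, and the groups did not overlap. The means were 2513 ± 918 CPM in knockout and 10731 ± 4215 CPM in control libraries (SD, n = 3 each), a log2 ratio of -2.09 with all libraries and -2.06 without control 1 and knockout 2. Hepatocyte markers fell and macrophage markers rose in the same libraries, and their part in this sum was not tested.

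Serpina3k (104338486 to 104346144, plus strand), also called contrapsin, gave most of the Serpina3 counts, 79.9 ± 6.06% in knockout and 86.8 ± 9.16% in control libraries (SD, n = 3 each). It had 1718, 3073 and 1343 CPM in knockout libraries 1 to 3, against 11882, 7972 and 7327 CPM in control libraries 1 to 3. Every control value was more than the highest knockout value. Its log2 fold change was -2.15 (SE 0.35) with all libraries, -1.91 (SE 0.38) without control 1 and -2.58 (SE 0.27) without knockout 2.

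Serpina3n (104406729 to 104414329, plus strand) encodes an acute-phase inhibitor of granzyme B and other serine proteases. It had 283, 284 and 265 CPM in knockout libraries 1 to 3, against 2958, 466 and 460 CPM in control libraries 1 to 3. The 3 knockout values and the values of controls 2 and 3 were each close together, and control 1 was 6.39 times the mean of the other controls. Its log2 fold change was -2.22 (SE 0.82), not called, with all libraries and -0.74 (SE 0.09), called, without control 1. The knockout mean of 277 ± 10.5 CPM (SD, n = 3) thus compares with 463 CPM over controls 2 and 3.

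Serpina3m (104338486 to 104394257, plus strand) is another antichymotrypsin-type copy. Serpina3m had 200.4, 190 and 183 CPM in knockout libraries 1 to 3, against 745, 187 and 196 CPM in control libraries 1 to 3. Knockout values lay close to those of controls 2 and 3, and control 1 was 3.89 times the mean of these. The log2 fold change of -0.98 (SE 0.56) with all libraries was -0.01 (SE 0.10) without control 1, and neither was called. The interval deposited for Serpina3m begins at the first base of Serpina3k and covers it on the same strand, while RefSeq starts the gene at 104387157, so reads of Serpina3k could bear on this row. 

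Serpina3c (104146382 to 104153870, minus strand) was close to silent. It had 3, 1 and 5 counts in knockout libraries 1 to 3, against 2, 3 and 0 counts in control libraries 1 to 3. No fold is given at these counts. Its promoter was 92.6% identical to that of Serpina3n over 297 aligned columns. The windows of 100 bases below are shown because a near-silent gene and a gene with at least 265 CPM in every library share 96 bases of 100, and capitals mark the 4 that differ.
Serpina3c: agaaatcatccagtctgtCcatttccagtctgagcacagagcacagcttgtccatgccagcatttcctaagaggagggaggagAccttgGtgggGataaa
Serpina3n: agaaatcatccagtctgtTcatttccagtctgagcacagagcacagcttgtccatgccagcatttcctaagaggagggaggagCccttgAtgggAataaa

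These windows lie at chr12:104153888-104153987 on the minus strand for Serpina3c and chr12:104406590-104406689 on the plus strand for Serpina3n, GRCm38.p6, and both end before the RefSeq start.

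Serpina6 (103646630 to 103657212, minus strand), the corticosteroid-binding globulin gene, was the 1 serpin of the 9 with a higher mean in the knockout. It had 410, 355 and 433 CPM in knockout libraries 1 to 3, against 71.5, 264 and 308 CPM in control libraries 1 to 3. The groups did not overlap, and control 1, with the lowest value, was 0.25 times the mean of the other controls. The means were 399 ± 40.1 CPM in knockout and 215 ± 126 CPM in control libraries (SD, n = 3 each). The log2 fold change was 0.90 (SE 0.50), not called, with all libraries and 0.48 (SE 0.12), called, without control 1.

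**Figure D3:**
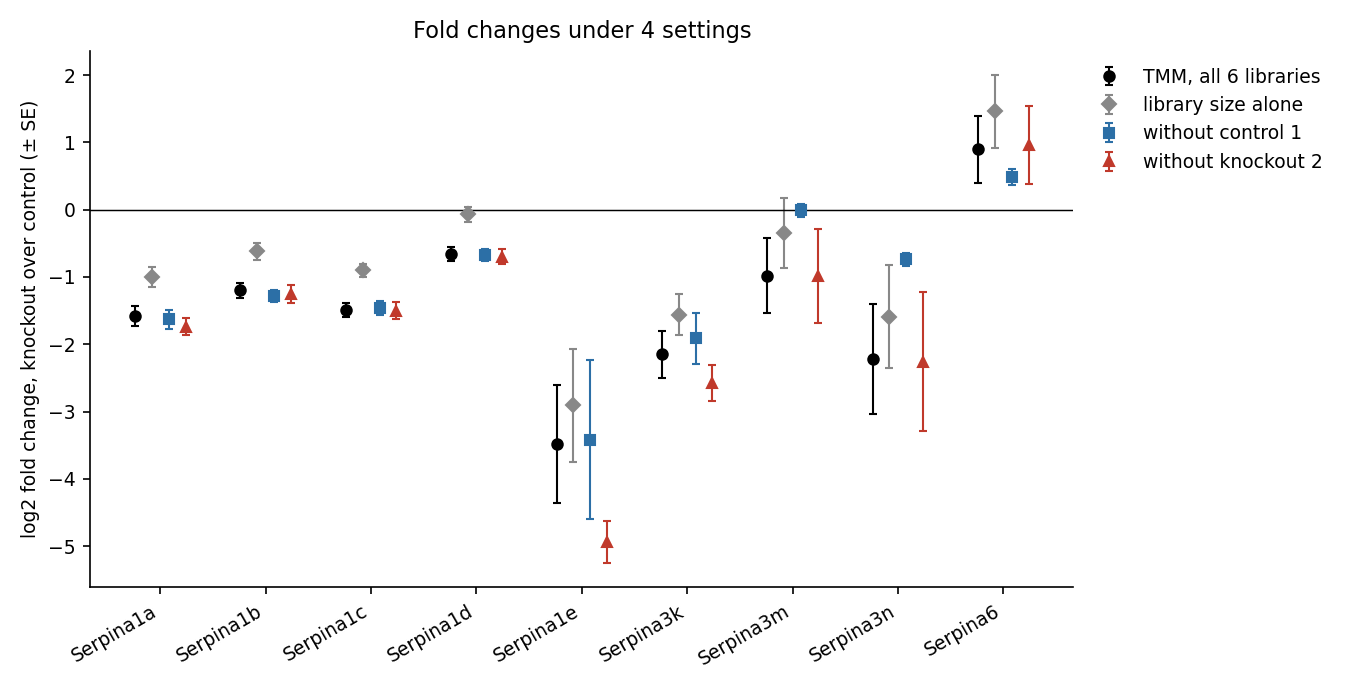
Log2 fold change of knockout over control for the 9 serpins that passed the low-count filter, with standard error, fitted with TMM and all 6 libraries (black), with library size alone (grey), without control 1 (blue) and without knockout 2 (red). Serpina3m and Serpina3n move most without control 1, to -0.01 and -0.74, and Serpina1e moves most without knockout 2, to -4.94. Serpina6 moves to 0.48 without control 1 and to 1.46 with library size alone.

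Control 1, the library in which Serpina3m and Serpina3n were high and Serpina6 low, was also high in most genes of an acute-phase list put together after these values were seen. Of its 12 genes, 8 were at least 2-fold higher in control 1 than in either other control, and Saa3, Hpx, Itih4 and Cp were not. The 12 genes summed to 8085 to 8944 CPM in knockout and 15056 to 36904 CPM in control libraries. Saa1, a serum amyloid A gene that was not called (edgeR adjusted p = 0.125) and was named after its values were seen, had 23.6, 17.2 and 15.1 CPM in knockout libraries 1 to 3, against 671, 27.1 and 22.4 CPM in control libraries 1 to 3. Socs3, a cytokine-induced inhibitor of cytokine signalling, likewise named after its values were seen, had 22.5, 17.0 and 10.9 CPM in knockout libraries, against 179, 15.7 and 14.9 CPM in control libraries. With all libraries 4 of the 12 fell and none rose, beside 13.0% of all genes called lower and 12.6% higher. The 4 were haptoglobin, Hp (-3.12), the fibrinogen gene Fgb (-2.07), ceruloplasmin, Cp (-1.46), and Itih4 (-0.74). Without control 1 these log2 fold changes were -2.40 for Hp, -1.31 for Fgb, -1.44 for Cp and -0.43 for Itih4. In that setting 6 of the 12 were lower and 1 higher, beside 16.0% and 15.3% of all genes. Fgb and Itih4 lost their calls without any 1 knockout library and with no filter on low counts, and Itih4 also without control 2, under library size alone and with upper-quartile factors. The median log2 fold change of the 12 genes was -0.58 without control 1, against -1.43 with all libraries. The part of this library in the serpin values is given above by leaving it out, and its cause was not tested.

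Across the 6 libraries, the genes whose profiles lay nearest to the serpins were found by the Euclidean distance of mean-centred log2 CPM among 9728 genes with 5 CPM or more. Nearest to the Serpina1 sum were plasminogen, Plg (distance 0.132), the mannose-binding lectin gene Mbl1 (0.162) and the cytochrome P450 gene Cyp3a11 (0.235). Plg had 1021, 1381 and 942 CPM in knockout libraries 1 to 3, against 3605, 3458 and 3381 CPM in control libraries 1 to 3, so knockout 2 was the highest of its group there as in the Serpina1 sum. Nearest to the Serpina3 sum were the chaperone gene Hyou1 (0.314), the isoprenoid enzyme gene Fdps (0.316) and Nat8f2 (0.418). Hyou1 had 207, 347 and 151 CPM in knockout libraries, against 1237, 715 and 609 CPM in control libraries. Nearest to Serpina6 was D930048N14Rik (0.28), then Arl4d (0.644) and Bmf (0.645), all lowest in control 1. D930048N14Rik had 23.9, 20.7 and 26.2 CPM in knockout libraries, against 3.31, 17.0 and 15.9 CPM in control libraries. For Serpina1e, added after its values were seen, the nearest were Cyp2c54 (0.702), the major urinary protein gene Mup21 (0.74) and Cyp4a12a (0.902), each highest among the knockouts in knockout 2. Genes picked by distance over the same 6 libraries tend to share their order of libraries, so these likenesses are no separate result.

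Between 103446630 and 104614329 on chromosome 12, the stretch that holds the serpins and 200 kb to either side, the table listed 32 genes, of which 22 were tested and 13 of these were not among the 10. Of the 13, 8 fell and 4 rose at an adjusted p under 0.05 in edgeR's quasi-likelihood test. Over all genes tested, 13.0% were called lower and 12.6% higher. The median log2 fold change of the 13 was -1.07, against 0.01 for all genes tested. The largest fall was that of Serpina4-ps1, listed between Serpina12 and Serpina5, with 0.775, 1.81 and 0 CPM in knockout libraries 1 to 3, against 469, 176 and 187 CPM in control libraries 1 to 3 (-8.32 on the log2 scale, SE 1.16, adjusted p = 0.0063 from edgeR). Serpina9 (-3.79), B430119L08Rik (-3.21), Serpina12 (-2.07), Gm8893 (-1.95), Serpina11 (-1.63), Serpina10 (-1.07) and Ppp4r4 (-0.96) also fell. Without control 1 the log2 fold change was -7.72 for Serpina4-ps1, -3.10 for Serpina9 and -1.07 for Gm8893, and without knockout 2 it was -9.50 for Serpina4-ps1 and -4.63 for Serpina9. Serpina12 is vaspin, and Serpina10 inhibits coagulation factors. Next to these, Serpina5, the protein C inhibitor gene, rose to 3.04, 6.0 and 3.34 CPM in knockout libraries, against 0.633, 0.0954 and 0.485 CPM in control libraries (log2 fold change 3.34, SE 0.56, edgeR adjusted p = 0.00536). Serpina3f (1.09) and Serpina3g (0.88), copies between Serpina3c and Serpina3k, rose as well, and so did Ifi27l2b (4.40), an interferon-induced gene at the edge of the stretch. Serpina3h, at -0.19 (SE 0.43, edgeR adjusted p = 0.772), was not called. Scaling by library size alone ended the calls of Ppp4r4, Serpina10 and Gm8893, testing without a filter on low counts ended those of Serpina10, Gm8893 and Serpina12, and leaving out 1 library ended those of Serpina10, Gm8893 and Serpina3f.

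**Figure D4:**
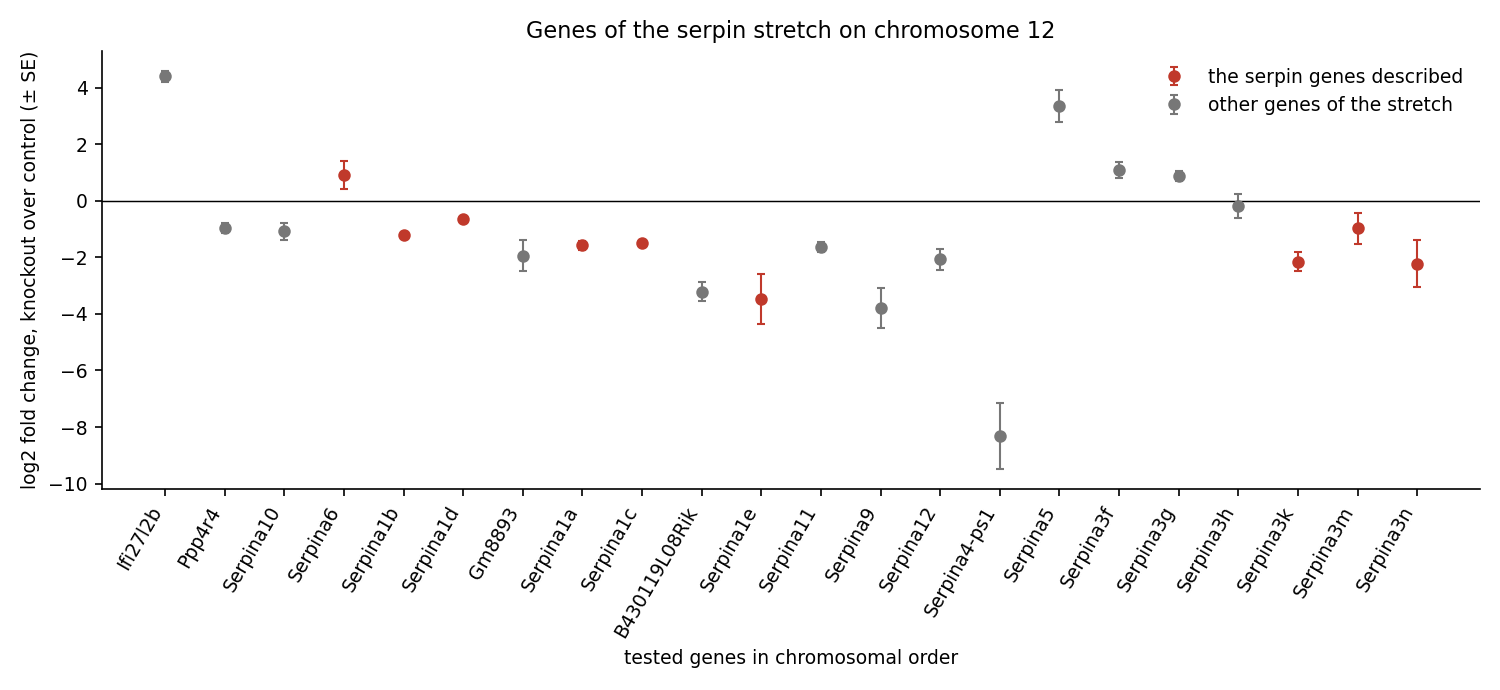
Log2 fold change of knockout over control, with standard error, for the 22 tested genes of the serpin stretch in chromosomal order from left to right; the 10 serpins described, less Serpina3c, are in red and the other genes in grey. The Serpina1 block lies below 0 throughout, at -0.66 to -3.48, and Serpina5, Serpina3f and Serpina3g, between the Serpina1 and Serpina3k genes, lie above 0.

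Among other serpins and the proteases they meet, counts of lower genes were above those of higher genes with TMM, beside 13.0% of all genes called lower and 12.6% higher, but with library size alone this did not hold for the serpins of other clades or for the proteases. Of 14 tested serpins of other clades, 6 fell and none rose (median log2 fold change -0.73, against 0.01 for all genes), among them alpha-2-antiplasmin, Serpinf2 (-1.13, edgeR adjusted p = 0.00092), and the protease nexin Serpine2 (-2.73, edgeR adjusted p = 0.00129). Of 11 other clade A serpins tested, 6 fell and 3 rose. Serpina7, thyroxine-binding globulin, a hormone carrier like Serpina6 and named after its values were seen, was lower, at 4.91, 5.3 and 4.61 CPM in knockout libraries, against 128, 25.6 and 30.2 CPM in control libraries (log2 fold change -3.63, edgeR adjusted p = 0.0181), and lost its call without any 1 knockout library and with no filter on low counts. Control 1 held the highest level of Serpina7, and without that library its log2 fold change was -2.50 (edgeR adjusted p = 2.09e-05). Of 7 tested proteases on the target list, Plg (-1.64), F11 (-1.70) and Klkb1 (-0.87) fell and none rose. Neutrophil elastase, Elane, a target of alpha-1-antitrypsin, had at most 0.292 CPM in any library and was not tested. Which proteases each Serpina1 copy inhibits was not examined here. Klkb1 lost its call under library size alone, with upper-quartile factors, with no filter on low counts and whenever 1 library other than control 1 was left out.

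Transcription factors, receptors and signalling genes known from work on these genes were split, with 8 of 19 lower and 2 higher. This stood beside 13.0% of all genes called lower and 12.6% higher. The median log2 fold change of the 19 was -0.52, against 0.01 for all genes. Cebpa, a factor of many liver genes, had 340, 314 and 256 CPM in knockout libraries 1 to 3, against 838, 670.1 and 702 CPM in control libraries 1 to 3 (log2 fold change -1.28, edgeR adjusted p = 0.00139), and Foxa1 was lower too, at -1.57 (edgeR adjusted p = 0.00164). Jak1 (0.83) and the oncostatin M receptor, Osmr (0.88), rose. Osmr lost its call without knockout 1, knockout 2, control 2 or control 3 (edgeR adjusted p up to 0.0685).

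Secreted serpins fold in the endoplasmic reticulum, and misfolded alpha-1-antitrypsin is removed by the degradation machinery there. Of 17 genes of protein folding, export and degradation in the endoplasmic reticulum, 7 fell and 2 rose (median -0.40, against 0.01 for all genes). Beside these counts and those of the glucocorticoid list below, 13.0% of all genes were called lower and 12.6% higher. Uggt1, the folding sensor, was at -1.0 (SE 0.17, edgeR adjusted p = 0.00534). Edem2 (0.89) and the cargo receptor subunit Mcfd2 (0.55) were higher. Mcfd2 lost its call without any 1 library other than control 1, and Uggt1 lost its own under library size alone. Among 8 genes of the response to glucocorticoids, the ligands of the Serpina6 protein, Sgk1 (1.21) and Per1 (0.69) rose, and Tat (-0.95) and Hsd11b1 (-3.33), the enzyme that regenerates active glucocorticoid, fell. Hsd11b1 had 52.9, 87.4 and 53.8 CPM in knockout libraries, against 543, 738 and 671 CPM in control libraries. Sgk1 and Per1 lost their calls without 1 or more single libraries, Sgk1 with no filter on low counts too, and Tat without knockout 1 and under library size alone.

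Markers of other cells give the setting for these levels. Alb fell by 2.21 and Asgr1 by 1.15 on the log2 scale, and of the macrophage markers Mpeg1 rose by 2.18 and Cd5l by 0.97. Lyve1 (2.18), of 8 endothelial markers, and Col1a2 (0.89), of 8 stellate cell markers, rose and none fell, and Col1a2 lost its call when any 1 library other than control 3 was left out. No bile duct marker among 5 tested and no neutrophil marker among 2 tested was called. Beside these marker counts, 13.0% of all genes were called lower and 12.6% higher. Sox9 was at -1.62 with all libraries and 0.29 without control 1. S100a9 was at -0.35 with all libraries and 4.01, called, without control 1. It had 22, 10 and 52 counts in knockout libraries 1 to 3, against 67, 2 and 0 counts in control libraries 1 to 3. The 4.01 thus rests on controls with 2 and 0 counts, and its size is not read. Neutrophil markers summed to 1.21 to 4.36 CPM in knockout and 0.323 to 6.72 CPM in control libraries. How far these cell markers bear on the serpin levels was not tested.

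Scaling moved the counts of these lists, and library size alone called 50.9% of all genes tested higher and 4.08% lower. With library size alone, 4 lower and 4 higher genes were counted among the serpins of other clades, 5 lower and 4 higher among the other clade A serpins and 2 lower and 3 higher among the proteases. Likewise 4 lower and 3 higher were counted among the regulators, 2 lower and 7 higher in the folding and degradation list and 1 lower and 3 higher in the glucocorticoid list. All 12 macrophage, all 8 endothelial and 5 stellate cell markers were then higher and 6 hepatocyte markers lower, and the stretch on chromosome 12 held 5 lower and 4 higher neighbours. Without control 1, 5 proteases were lower and none higher, and 7 serpins of other clades were lower and 2 higher. Of all genes tested in that setting, 16.0% were lower and 15.3% higher.

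ChIP regions were looked up from 1 kb before to 1 kb after each serpin, with gene bounds from RefSeq on the same assembly, and at all genes with the deposited bounds. The knockout list held 1309 regions covering 669 kb and the control list 16995 regions covering 10415 kb, so the lists differ in how much was called, and with 1 library per genotype no difference was tested. Regions were listed at 6 serpins in the knockout list, beside 4.81% of all genes tested and 18.7% of genes with 100 CPM or more in the controls. In the control list 8 serpins had regions, beside 42.8% of all genes tested and 83.3% of those with 100 CPM or more. Serpina3c and Serpina6 had none in either list, and Serpina1e and Serpina3n had none in the knockout list.

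At the 8 serpins with a control region, regions covered 30.3% to 89.9% of the window in the control list. At Serpina3k they covered 40.3% of the window in the knockout list and 89.9% in the control list, where a single region of 9529 bases (104338419 to 104347947) took in the whole gene. The highest fold over background at a summit, the authors' own value, was 8.46 in the knockout list and 38.1 in the control list, at a -log10 q of 8.81 in the knockout and 107.8 in the control list. Within its list, the Serpina3k summit ranked 256 of 1649 rows by fold in the knockout and 58 of 22793 in the control. Both top summits lay at the end of the gene, 7322 bases from its start in the knockout list and 7382 bases in the control list.

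Among the Serpina1 genes, Serpina1c had the highest control summit, at 7.04-fold in the knockout list and 21.4-fold in the control list, with 7.09% of its window covered in the knockout list and 84.3% in the control list. Serpina1a had 5.55% covered in the knockout list and 81.9% in the control list, with top folds of 5.28 in the knockout and 13.1 in the control list. Serpina1b had 3.48% in the knockout list and 73.5% in the control list, where 1 region of 9249 bases held 21 summits. Serpina1d was covered least of the 5 in the control, at 3.05% in the knockout list and 41.7% in the control list, with top folds of 4.03 in the knockout and 9.89 in the control list. Serpina1e, the copy with the largest RNA difference, had no region in the knockout list, against 62.5% and a top fold of 15.4 in the control list. The order of the copies by coverage in the control list was thus not their order by RNA fold change.

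Serpina3m had 6.46% covered in the knockout list and 40.7% in the control list, with top folds of 6.22 in the knockout and 7.58 in the control list. Serpina3n had none in the knockout list, against 30.3% and a top fold of 7.52 in the control list. In the control list the highest summit lay past the middle of the gene at all 8 serpins with a region, 62.0% to 101.8% of the way from the start to the end. A summit within 1 kb of the start was listed at 5 of these 8, and at none of the 6 in the knockout list. Of those 6, the highest knockout summit lay past the middle of the gene at 4. Shares of all genes with such summits are not given here, so neither position is read as particular to the serpins. Reads of near-identical copies could have been split or dropped in the ChIP as in the RNA, which bears on single copies more than on the block.

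**Figure D5:**
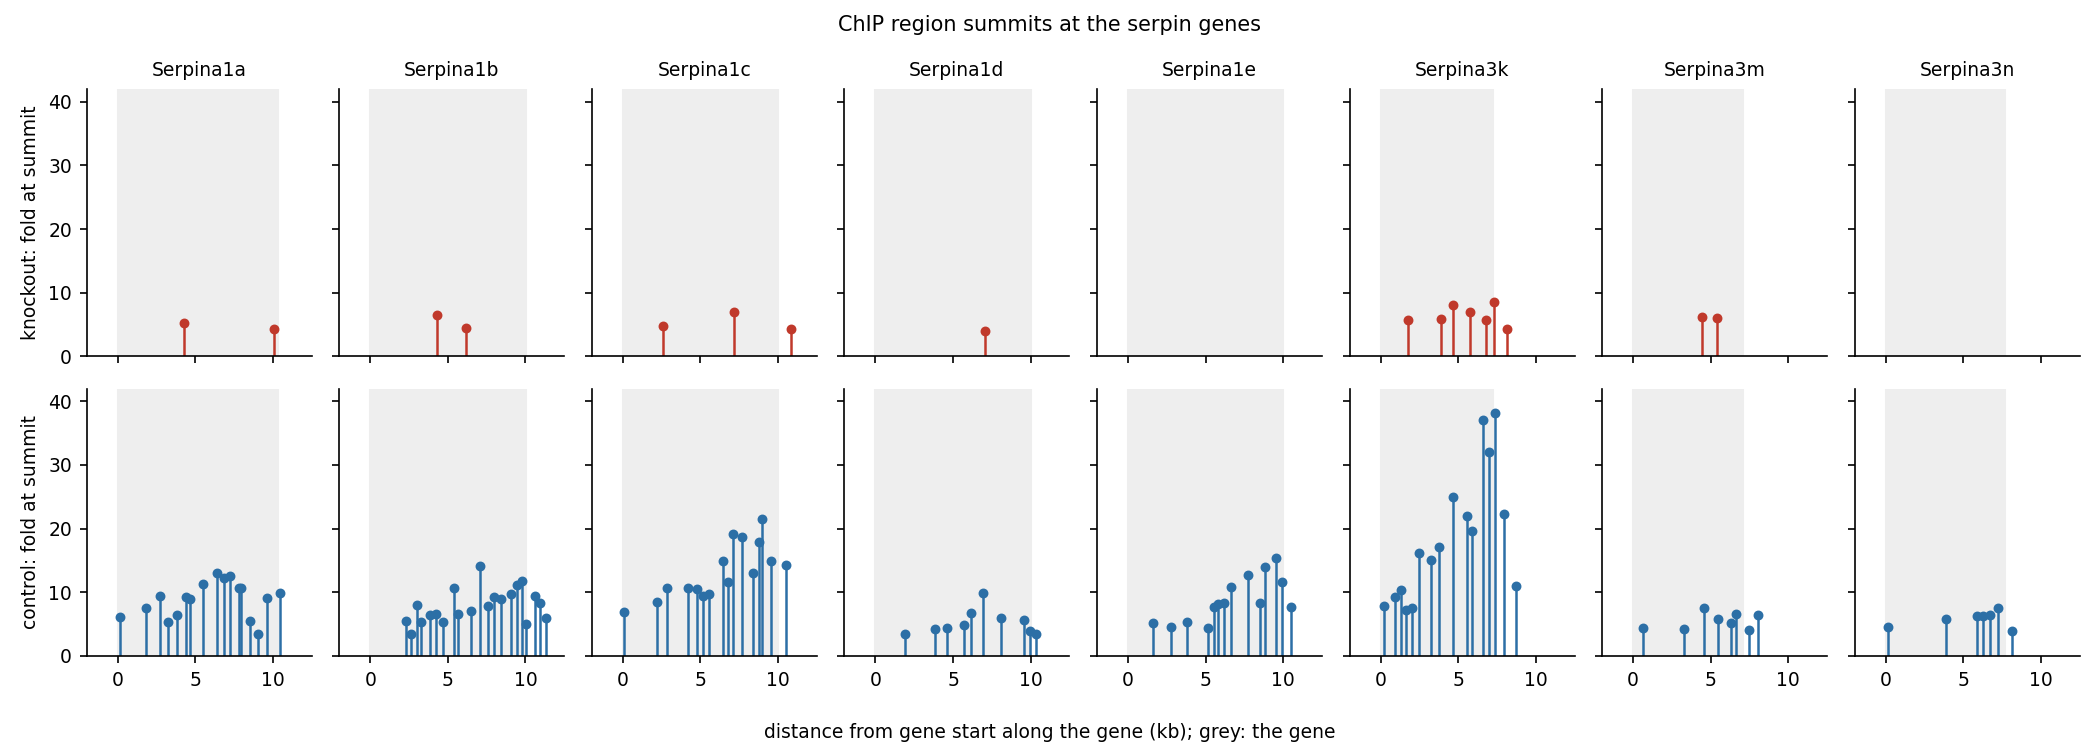
Fold over background at each listed ChIP summit (vertical axis, the authors' value) against the distance from the gene start in kb, for the 8 serpins with a region, with the knockout list in the upper row and the control list in the lower row; grey marks the gene. Control summits are highest past the middle of each gene, up to 38.1-fold at Serpina3k, where the highest knockout summit is 8.46-fold. At Serpina1b, Serpina1d and Serpina1e the control summits begin 2313, 1917 and 1641 bases from the start. Folds of the upper and lower rows were not tested against each other.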

How the data were processed

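The authors deposited whole-number counts per Ensembl gene for 6 RNA libraries, with gene positions on mm10. HISAT2 2.1.0, Bowtie2 2.2.3 and HTSeq 0.6.0 are named, without roles, per the submitters' processing notes, and the sources used here give no read filter, strand setting or treatment of reads that fit several copies. The same table holds the authors' log2 fold change per gene, which for the 10 serpins in the authors' deposited table ran between -3.48 (Serpina1e) and 0.89 (Serpina6). The ChIP peak lists deposited by the authors, 1 per library, give a fold over background (a ratio) and a -log10 p and -log10 q for each summit; BWA, SAMtools and MACS2 are named in the submitters' processing notes, and the sources used here do not say whether an input was used. Each such fold belongs to 1 peak. Folds of both lists are given side by side as descriptions, and no change between the libraries was tested.

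Here, counts were filtered with filterByExpr (minimum count 10, total 15), scaled by TMM and fitted over all 15135 genes in R 4.3.3 with edgeR 4.0.16 and its robust quasi-likelihood test (two-sided, genotype only, Benjamini-Hochberg over all genes, threshold 0.05). Log2 fold changes and SE of the serpins come from that fit. Sums add counts of the members of a subfamily, and their log2 ratio is that of the group means. The procedure was tested on simulated counts. ChIP regions were matched when they overlapped the gene by 1 base or more within 1 kb on each side. Distances between profiles used log2(CPM + 0.5).

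The 10 serpins and all gene lists were chosen with earlier results of these data known. Named genes were all 10 serpins, the tested genes of the stretch, the 3 nearest profiles, and of each list the 2 with the smallest adjusted p (the most abundant where none passed) and every changed member where 5 or fewer changed in a direction. Exceptions, and genes of the acute-phase list, which was added later, are marked. Of the gene list entries, 2 other clade A serpins, 3 proteases and 1 hepatocyte marker did not match a row and were not analysed here. The list of transcription factors and receptors is given and counted over 19 genes, and 2 further entries chosen for it are not reported here. Library totals of 22191786 to 26595249 counts limit precision little at these genes, except Serpina3c. Alternatives were other scalings, no filter, a replicate block, DESeq2 1.42.0, leaving out libraries, a stricter ChIP threshold and other ChIP windows.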

Additional observations from a re-analysis of the deposited data

How the results depend on the processing

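Scaling decided the balance of calls and the size of every fall. With library size alone, 7711 genes were higher and 617 lower, the Serpina1 sum had a log2 ratio of -1.13 and the Serpina3 sum of -1.50, and Canx turned to 0.006. Relative to the median of all genes under that scaling, the serpins lay between -3.51 (Serpina1e) and 0.86 (Serpina6). Leaving out 1 library at a time gave 1119 to 2407 genes higher and 1104 to 2514 lower, 5 to 6 serpins called lower, and log2 ratios of -1.88 to -1.64 for the Serpina1 sum and -2.45 to -1.73 for the Serpina3 sum. Leaving out control 1 and knockout 2 together, an alternative chosen after seeing the data, gave 7 serpins lower and 1 higher. Counted over genes and settings, the 6 called serpins lost their calls 6 times (Serpina1e 5 times, Serpina1d under library size alone), and the 69 called genes of the lists and the chromosome 12 stretch lost theirs 120 times, over 31 genes. Of these called genes, Canx under library size alone was the only one to change direction under the alternatives run; the causes were not tested. With a -log10 q of at least 5, 4 serpins had a knockout region and 8 a control region.

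The replicate numbers do not pair the libraries by the labels. Same-numbered libraries deviated from their group means with correlations of 0.134, 0.0497 and 0.122, although all 6 libraries correlated best with their own number, a hint from the data and not the design. With a replicate block, 1713 genes were higher and 1755 lower, the same number of serpins, 6, was called lower, and the sums had log2 ratios of -1.73 (Serpina1) and -2.09 (Serpina3). The block ended the calls of 3 list genes, Klkb1, Cebpb and Il6ra, named here after their values were seen. RLE factors, upper-quartile factors and DESeq2 left 6 serpins called lower. Depth limits only Serpina3c, with 5 counts or fewer per library.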
